A study of Mus musculus domesticus with 6 samples.

Results

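A set of 9 genes whose products prevent or remove R-loops was followed in RNA from burst-forming unit-erythroid cells (BFU-E), the earliest progenitors committed to the red cell lineage, sorted from mouse fetal livers at E14.5. They were chosen by symbol from the RNase H, helicase, topoisomerase and THO genes and matched to Ensembl identifiers, and all 9 were found among the 55359 entries of each deposited table. These were Rnaseh1, Rnaseh2a, Rnaseh2b, Rnaseh2c, Aqr, Dhx9, Top1, Thoc1 and Thoc2. The samples were 3 libraries of Exosc3 fl/fl Cre+ embryos and 3 of Exosc3 fl/fl Cre- embryos, from mice described as Exosc3-floxed and Vav1-Cre, so both groups carried the floxed Exosc3 allele and only the first carried Vav1-Cre. Exosc3 encodes a structural subunit of the RNA exosome, the nuclease complex that trims and degrades RNA from the 3' end, and the Vav1 promoter drives Cre in blood cells broadly rather than in BFU-E alone. Cells were sorted as GFP+, lineage-negative, Kit+ and lowest for CD24 and CD71, and the design text gives 2 samples from each of 3 litters without saying which belong together. The labels do not say how the GFP gate was set for embryos without Cre.

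An R-loop forms when a nascent RNA pairs again with its DNA template and leaves the other DNA strand unpaired. RNase H enzymes cut the RNA of such a hybrid, helicases unwind it, topoisomerase I relaxes the supercoils behind the polymerase that favour it, and the THO complex packages the nascent RNA so that it cannot pair back. The RNA exosome also degrades nascent and noncoding RNAs in the nucleus, and loss of its subunits has been linked to hybrid accumulation in other systems. Transcript levels measure neither hybrids nor enzyme activity.

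The libraries held between 89629949 and 124931215 expected counts, the reads that the RSEM model assigns to genes. Exosc3 itself was at 26.8, 22.1 and 30.2 CPM (reads per gene relative to the TMM-scaled library total) in Cre-positive replicates 1, 2 and 3, against 51.9, 44.3 and 47.9 CPM in Cre-negative replicates 1, 2 and 3. Its log2 fold change was -0.87 (edgeR adjusted p = 0.259, DESeq2 adjusted p = 0.0029, limma-voom adjusted p = 0.312). The totals cover the whole gene, so reads from any exons that Cre leaves in place are included. The source of the remaining Exosc3 reads was not tested. Genes seen in a single library had a median of 108 reads there, so reads are not independent molecules and intervals here rest on the spread between libraries. Beyond the litters, the labels do not say how far the replicates were handled separately, so part of the spread behind the p-values may be technical. The edgeR fit also draws the spread of each gene toward that of other genes, so its p-values and intervals do not rest on a gene's own libraries alone. The erythroid regulators Gata1, Klf1 and Epor were present in all 6 libraries, with Klf1 between 228 and 327 CPM in Cre-positive and between 224 and 269 CPM in Cre-negative libraries.

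None of the 9 genes passed the test between Cre-positive and Cre-negative BFU-E, and 7 of the 9 point estimates from counts were above 0. That tally depends on the processing, since Rnaseh2a, Rnaseh2c and Dhx9 changed sign when estimated transcript lengths entered the fit. The largest estimates from counts were 0.31 for Rnaseh2c, 0.28 for Aqr and -0.34 for Rnaseh1 on the log2 scale, which is 1.24-fold, 1.21-fold and 0.788-fold. By edgeR, with p-values adjusted over all 13117 tested genes (Benjamini-Hochberg), 0 of the 9 had an adjusted p under 0.05, beside 0.122% of all tested genes (16 genes, all higher in Cre-positive cells). DESeq2 called 0 of the 9, beside 4.57% of the genes it tested, and limma-voom called 0, beside 0.152% of its genes. In the edgeR fit kept to 8338 genes averaging at least 1000 counts, 0 of the 9 passed, beside 1.01% of those genes. With edgeR on all tested genes 1 of the 9, Aqr, had an unadjusted p under 0.05, beside 8.23% of all tested genes. The median log2 fold change of the 9 genes was 0.12, against -0.01 over all tested genes. In RNA from a pool of sorted cells, fewer cells of a type and less RNA per cell cannot be told apart.

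**Figure D1:**
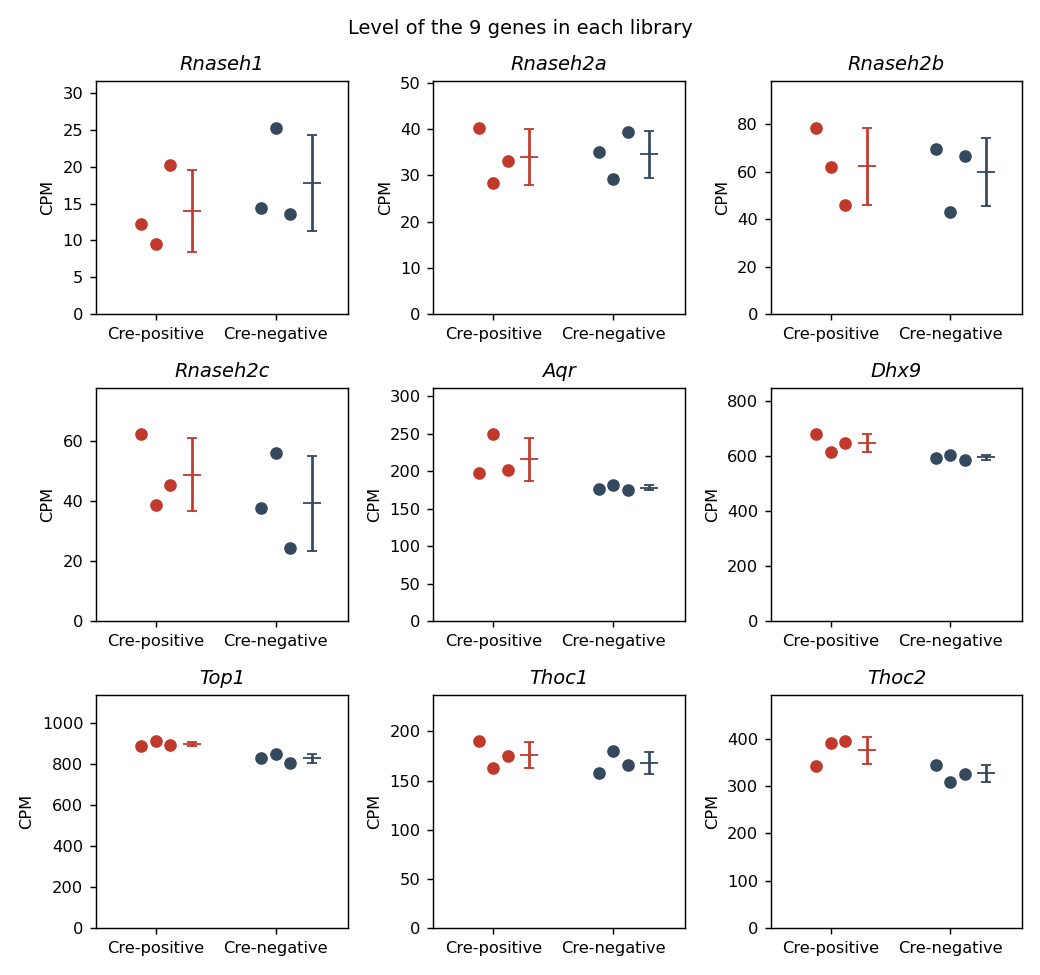
Level of each of the 9 genes in CPM (vertical axes start at 0), with 1 point per library and the mean with its SD (n = 3) beside each group. The groups overlap for 6 genes, and all 3 Cre-positive libraries lie above all 3 Cre-negative libraries for Aqr, Dhx9 and Top1, of which Dhx9 turns to -0.12 (log2) with effective length offsets and both Aqr and Dhx9 overlap in TPM.

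None of the 4 RNase H genes passed the test. They had the fewest reads of the set and the largest coefficients of variation. Rnaseh1 encodes the monomeric RNase H that cuts the RNA strand of hybrids in the nucleus and in mitochondria. It was at 12.3, 9.52 and 20.2 CPM in Cre-positive replicates 1, 2 and 3, against 14.4, 25.3 and 13.6 CPM in Cre-negative replicates 1, 2 and 3. The groups overlapped, with the highest library of each group far above the other two. Its difference was -0.34 ± 0.42 on the log2 scale (standard error, edgeR adjusted p = 0.965), and its 95% interval ran from 0.407-fold to 1.53-fold. It was -0.71 without Cre-positive replicate 3 and 0.00 without Cre-negative replicate 2.

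RNase H2 is a trimer that also removes single ribonucleotides from DNA, with Rnaseh2a encoding its catalytic subunit. Rnaseh2a was at 40.3, 28.4 and 33.2 CPM in Cre-positive libraries, against 34.9, 29.2 and 39.4 CPM in Cre-negative libraries. The ranges coincided almost fully, and the means of 33.9 ± 5.96 and 34.5 ± 5.07 CPM (SD, n = 3 each) gave a log2 fold change of -0.02 (standard error 0.24, edgeR adjusted p = 0.999). Rnaseh2b, which encodes the subunit that binds the replication clamp PCNA, was at 78.6, 62.2 and 45.9 CPM in Cre-positive libraries, against 69.6, 43.3 and 66.8 CPM in Cre-negative libraries. Its values overlapped over nearly the whole range, with a log2 fold change of 0.06 (standard error 0.25, adjusted p = 0.999). Rnaseh2c, which encodes the small accessory subunit, was at 62.3, 38.8 and 45.5 CPM in Cre-positive libraries, against 37.7, 56.1 and 24.4 CPM in Cre-negative libraries. The groups overlapped, and the log2 fold change of 0.31 (standard error 0.31, adjusted p = 0.944) became 0.65 without Cre-negative replicate 2 and 0.06 without Cre-negative replicate 3.

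Transcript levels of the RNase H2 subunit genes did not keep a fixed proportion between libraries, and the technical part of this spread was not tested. The CPM ratio of Rnaseh2c to Rnaseh2b was 0.793, 0.623 and 0.99 in Cre-positive libraries, against 0.542, 1.296 and 0.365 in Cre-negative libraries. The CPM ratio of Rnaseh2a to Rnaseh2b averaged 0.564 ± 0.140 in Cre-positive and 0.589 ± 0.0869 in Cre-negative libraries (SD, n = 3 each). Neither ratio separated the groups (exact permutation p = 0.6 and 0.8, two-sided, and adjusted p = 0.75 and 0.8 over 5 such ratios, where 0.1 is the smallest p that 3 against 3 libraries allow). In TPM the ratio of Rnaseh2c to Rnaseh2b was 0.88, 0.81 and 1.216 in Cre-positive libraries, against 2.346, 2.052 and 0.80 in Cre-negative libraries, so its mean difference was -0.72 log2 units in TPM and 0.31 in CPM, with overlapping groups in both. The ratio of Rnaseh2a to Rnaseh2b averaged 1.43 ± 0.715 in Cre-positive and 1.19 ± 0.375 in Cre-negative libraries in TPM (SD, n = 3 each).

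In CPM the 2 helicases were higher in all 3 Cre-positive libraries, by small amounts that did not pass, and with effective length offsets the sign for Dhx9 turned (-0.12). In TPM the groups overlapped for both. Aqr encodes aquarius, an RNA helicase that sits on introns within the spliceosome and whose loss raises hybrid levels in human cells. It was at 197, 249 and 201 CPM in Cre-positive replicates 1, 2 and 3, against 176, 181 and 175 CPM in Cre-negative replicates 1, 2 and 3. The 3 Cre-negative libraries lay close together, and Cre-positive replicate 2 stood above its group. On the log2 scale the difference was 0.28 ± 0.12 (standard error, unadjusted p = 0.0374, edgeR adjusted p = 0.56). It was 0.17 without Cre-positive replicate 2, and its adjusted p ranged from 0.128 with DESeq2 to 0.959 with effective length offsets over the alternatives.

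Dhx9 encodes a DEAH-box helicase that unwinds DNA:RNA hybrids and binds double-stranded RNA. It was at 679, 614 and 648 CPM in Cre-positive libraries, against 595, 603 and 588 CPM in Cre-negative libraries. There was no overlap, and the lowest Cre-positive library lay close to the highest Cre-negative one. This gave a log2 fold change of 0.12 ± 0.07 (standard error, edgeR adjusted p = 0.822), from means of 647 ± 32.6 against 595 ± 7.86 CPM (SD, n = 3 each). The CPM ratio of Aqr to Dhx9 averaged 0.336 ± 0.0612 in Cre-positive and 0.298 ± 0.0023 in Cre-negative libraries, with overlapping groups (exact permutation p = 0.4, two-sided, and adjusted p = 0.75).

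Top1 encodes DNA topoisomerase I, which nicks 1 strand of DNA to release supercoils, and it had the most reads and the narrowest interval of the 9 genes. It was at 890.0, 911 and 893 CPM in Cre-positive replicates 1, 2 and 3, against 829, 847 and 807 CPM in Cre-negative replicates 1, 2 and 3. Every Cre-positive library lay above every Cre-negative one, and the coefficient of variation was 1.26% in Cre-positive and 2.45% in Cre-negative libraries. Its difference was 0.12 ± 0.07 on the log2 scale (standard error, edgeR adjusted p = 0.756), and the 95% interval ran from 0.98-fold to 1.20-fold. The biological coefficient of variation fitted for Top1 was 9.13%, above the variation seen within either group, because the fit draws on other genes.

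THO couples transcription to packaging of the RNA for export. Thoc1 encodes one of its core subunits and was at 190.0, 163 and 175 CPM in Cre-positive libraries, against 158, 180 and 166 CPM in Cre-negative libraries. The groups overlapped, with a log2 fold change of 0.07 (standard error 0.11, edgeR adjusted p = 0.986). Thoc2 encodes the large scaffold subunit and was at 343, 391 and 395 CPM in Cre-positive libraries, against 345, 309 and 326 CPM in Cre-negative libraries. Only Cre-positive replicate 1 fell within the Cre-negative range, and the difference was 0.20 ± 0.09 on the log2 scale (standard error, unadjusted p = 0.0559, adjusted p = 0.63). The CPM ratio of Thoc2 to Thoc1 averaged 2.15 ± 0.308 in Cre-positive and 1.96 ± 0.232 in Cre-negative libraries (SD, n = 3 each), and the groups overlapped (exact permutation p = 0.4, two-sided, and adjusted p = 0.75).

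Separation of the groups was thus seen for 3 of the 9 genes, in each case higher in Cre-positive libraries in CPM. In TPM only Top1 of these 3 was separated, and for Aqr the highest level of the 6 libraries was that of Cre-negative replicate 3 (66.8 TPM). This compares with 15.2% separated among all tested genes, with 7.53% higher and 7.66% lower in Cre-positive libraries. Of 2311 genes averaging 10000 counts or more, a limit chosen after the values were seen, 19.1% were separated, 10.7% were separated and higher, and 0.26% passed by edgeR, where 0 of the 5 members in that class did. The 3 separated genes belong to this abundant class, which had a median log2 fold change of 0.01 and a median absolute one of 0.12.

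**Figure D2:**
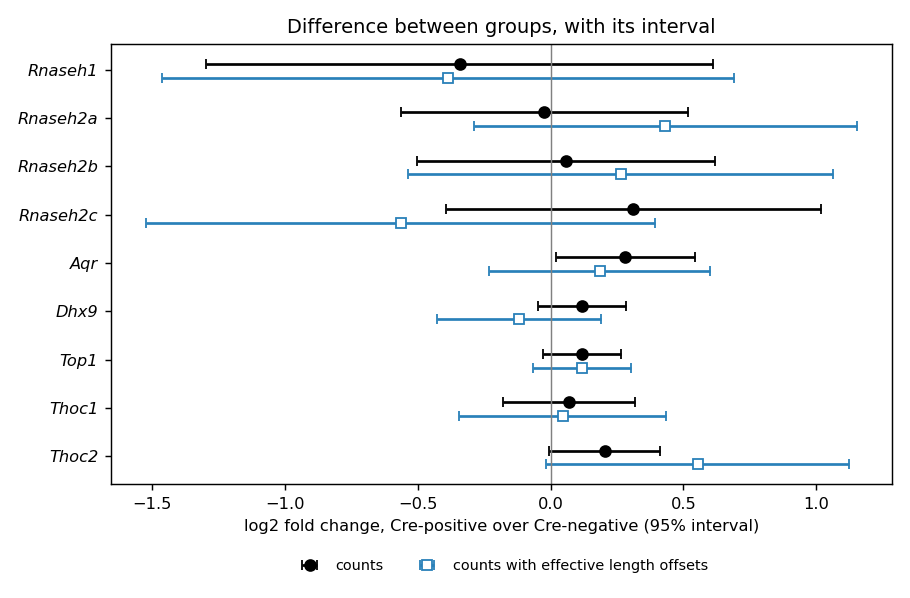
Log2 fold change of each gene, Cre-positive over Cre-negative, with its 95% interval from the counts (black circles) and from the counts with effective length offsets (open blue squares). The intervals from counts span 0 except for Aqr (0.02 to 0.54, not adjusted for the number of genes tested), and the offsets move Rnaseh2a, Rnaseh2c and Dhx9 to the other side of 0.

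The width of the interval differed widely among the 9 genes. Rnaseh1 had between 843 and 2653 reads per library, from 7.81 to 24.6 times the median of genes seen in a single library. Top1 had between 79858 and 110643 reads, from 739 to 1024 times that median. The interval of the fold change was 1.91 log2 units wide for Rnaseh1 and 0.29 for Top1, beside a median width of 1.72 over all tested genes. For 7 of the 9 genes the interval from counts excluded a change of 1 log2 unit in either direction, beside 42.01% of all tested genes. The exceptions were Rnaseh1, whose interval reached down to -1.30, and Rnaseh2c, whose interval reached up to 1.02. With effective length offsets the intervals of Rnaseh2a, Rnaseh2b and Thoc2 also took in 1 log2 unit, reaching up to 1.153, 1.062 and 1.125. Read number alone did not order the widths, since Rnaseh2a had fewer reads than Rnaseh2c (a mean of 3780 against 4830) and a narrower interval (1.08 against 1.41 log2 units), beside a lower biological coefficient of variation (23.6% against 28.6%).

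**Figure D3:**
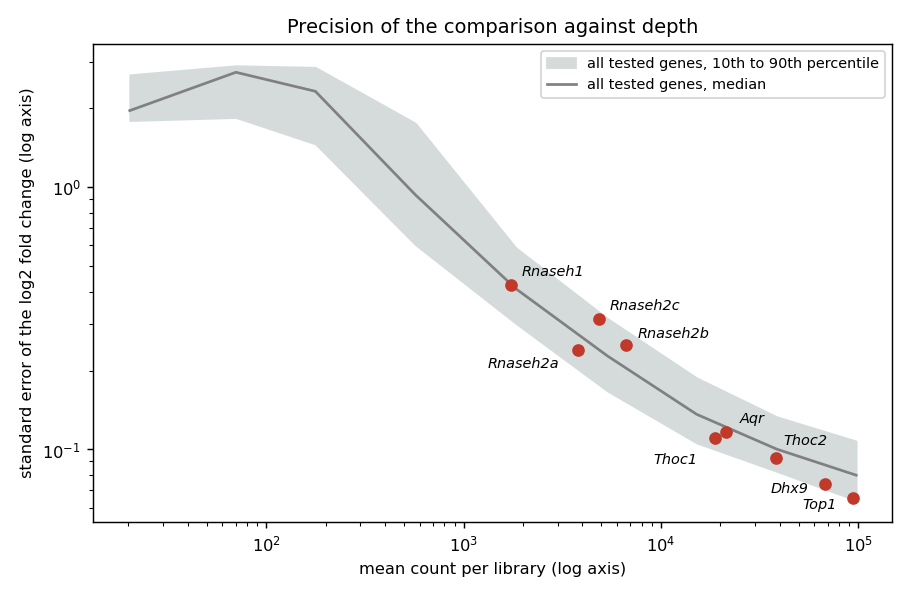
Standard error of the log2 fold change against the mean count per library, both on log axes, for the 9 genes (red) and for all tested genes in bins of mean count (grey line, median; band, 10th to 90th percentile). The 4 RNase H genes have standard errors from 0.24 to 0.42 and the other 5 from 0.07 to 0.12, along the course of the other genes.

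Levels per transcript length were compared in the authors' TPM, which are scaled so that genes of different length can be set side by side. Dhx9 and Top1 led, with averages of 276 ± 37.7 and 276 ± 9.59 TPM over the 6 libraries (SD), and did not differ beyond their spread. Thoc2 followed at 136 ± 38.6 TPM and lay below Top1 in every library. Rnaseh2c (92.3 ± 45.8 TPM), Rnaseh2a (87.0 ± 22.9), Thoc1 (82.2 ± 9.76), Rnaseh2b (72.9 ± 23.7) and Aqr (54.9 ± 9.22) came next, and the ranges of each pair of neighbours overlapped. Rnaseh1 was lowest at 15.6 ± 5.69 TPM, below Aqr in all 6 libraries.

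By group, Rnaseh1 averaged 13.4 ± 5.06 TPM in Cre-positive and 17.9 ± 6.36 TPM in Cre-negative libraries (SD, n = 3 each). The catalytic subunit of the other enzyme, Rnaseh2a, exceeded Rnaseh1 in every library, by 6.00, 12.5 and 5.70 times in TPM in Cre-positive libraries, against 4.53, 2.66 and 6.67 times in Cre-negative libraries. These ratios overlapped between the groups (exact permutation p = 0.3, two-sided, and adjusted p = 0.5 over the 5 ratios in TPM, a unit added after the data were seen).

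The order rests on the transcript models that RSEM assigned, and these differed between libraries. For each gene the tables give a mean transcript length weighted by the estimated isoforms. For Top1 it stayed between 3811 and 3852 bases, and for Rnaseh1 between 1437 and 1511 bases. For Thoc2, whose 16 annotated transcripts span 229 to 7622 bases, it was 2561, 2697 and 3652 bases in Cre-positive libraries, against 3182, 3008 and 5700 bases in Cre-negative libraries. For Rnaseh2c it was 1029, 1087 and 1096 bases in Cre-positive libraries, against 499.7, 1055 and 716 bases in Cre-negative libraries. Cre-negative replicate 1 was thus read as mostly short Rnaseh2c models, and its Rnaseh2c level of 181 TPM was the highest of the 6 although its 37.7 CPM was the second lowest.

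**Figure D4:**
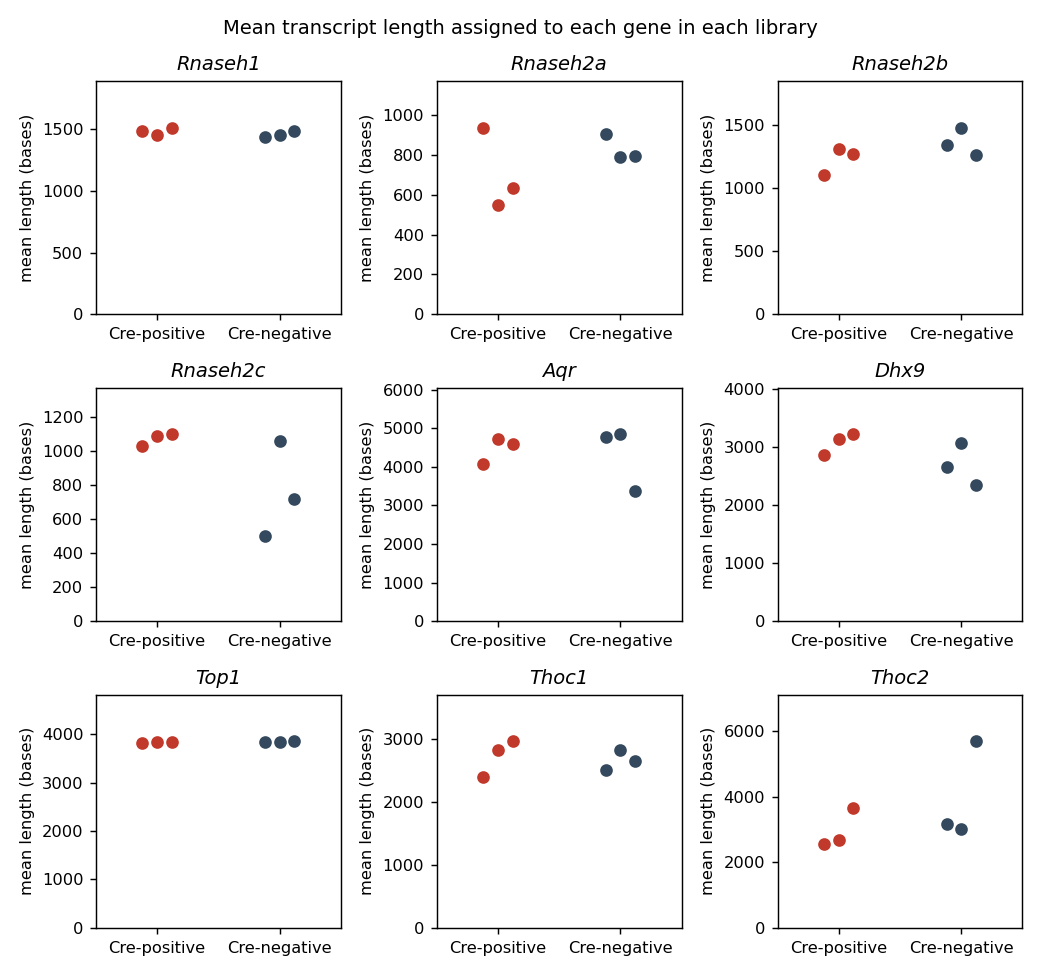
Mean transcript length in bases (vertical axes start at 0) assigned to each gene in each library, 1 point per library. Top1 stays between 3811 and 3852 bases, while Thoc2 ranges from 2561 to 5700 and Rnaseh2c from 499.7 to 1096 bases, and the groups overlap for all 9 genes.

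Several differences changed sign when these lengths entered the fit. With effective length offsets in the edgeR fit, the log2 fold change of Rnaseh2c was -0.56 in place of 0.31, that of Rnaseh2a 0.43 in place of -0.02 and that of Dhx9 -0.12 in place of 0.12. Thoc2 moved to 0.55, Aqr to 0.19, and Top1 stayed at 0.12. None of the 9 passed with the offsets (lowest adjusted p = 0.734, edgeR). In TPM the ratio of Thoc2 to Thoc1 was 1.662, 2.503 and 1.776 in Cre-positive libraries, against 1.659, 1.591 and 0.846 in Cre-negative libraries, and that of Aqr to Dhx9 was 0.1973, 0.2591 and 0.2106 in Cre-positive libraries, against 0.1544, 0.183 and 0.1966 in Cre-negative libraries. Neither pair of groups overlapped, but in both the lowest Cre-positive and the highest Cre-negative library were nearly tied (exact permutation p = 0.1, two-sided, the smallest possible, and adjusted p = 0.25 over 5 ratios), and in CPM both ratios overlapped. Of the 13 Thoc1 transcripts 11 are annotated as retained introns in GENCODE M21, as are 4 of 9 for Dhx9, and 7 of the 9 Aqr models are other noncoding ones.

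Several of the genes overlap a neighbour in that annotation. Rnaseh2a overlaps Prdx2, which encodes the abundant red cell antioxidant peroxiredoxin 2, on the opposite strand. Prdx2 averaged 460.2 CPM in Cre-positive and 392.4 CPM in Cre-negative libraries, with many more reads than Rnaseh2a in either group. Kat5 lies opposite Rnaseh2c and Usp14 opposite Thoc1, with log2 fold changes of 0.07 and 0.00. The library kit keeps strand, but the strand setting of the counting is not given in the sources used here, so the counts of Rnaseh2a, Rnaseh2c and Thoc1 are uncertain to that extent. Rnaseh1, Dhx9 and Top1 overlap no other annotated gene.

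Among other genes of the pathway, Ercc5 alone was called, by some of the tests and not by the main edgeR fit (all 6 libraries, 13117 genes). Of 61 tested genes in 7 lists, 0 passed in that main fit, beside 0.122% of all tested genes. An unadjusted p under 0.05 was found for 2 of the 61, beside 8.23% of all tested genes, and 32 had a log2 fold change above 0 against 29 below. DESeq2 and limma-voom each called 1 of them, Ercc5, beside 4.57% and 0.152% of the genes they tested. The medians were 0.03 for 13 other helicases, -0.04 for 13 other THO and TREX export genes, 0.02 for 6 genes of the TREX-2 export complex and 0.06 for 10 other topoisomerases and their partners. They were -0.10 for 4 partners of aquarius in the intron-binding complex, 0.02 for 11 nucleases, single-strand binding, BRCA and SR proteins, and 0.22 for 4 genes that share Aicardi-Goutières syndrome with RNase H2 in humans.

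**Figure D5:**
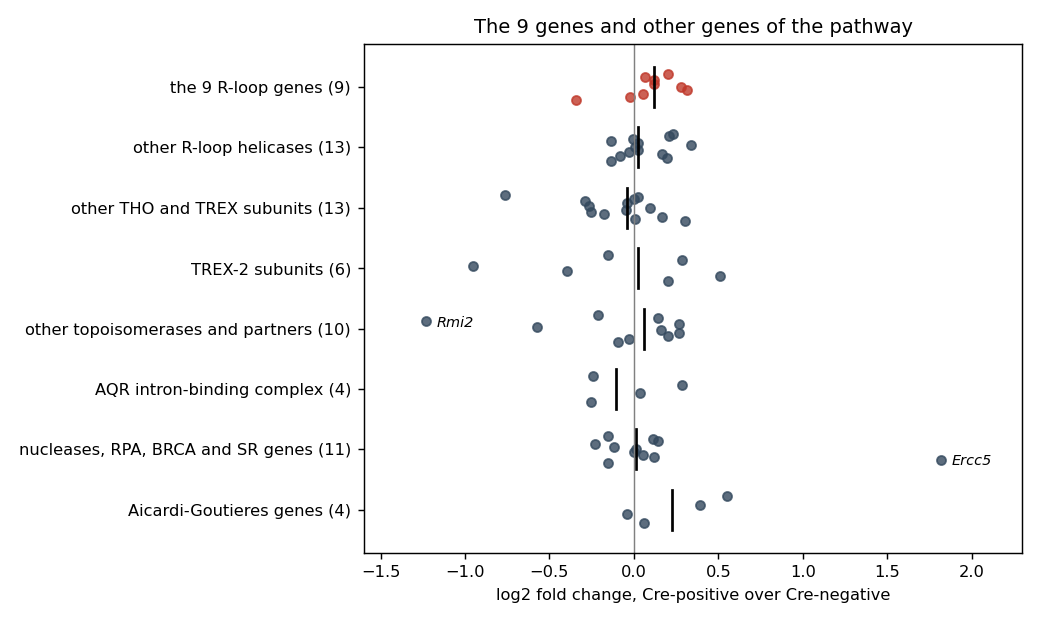
Log2 fold change, Cre-positive over Cre-negative, for the 9 genes (red) and 61 tested genes of 7 other lists (dark), 1 point per gene and a black bar at each list's median. The list medians lie between -0.10 and 0.22, and Ercc5 (1.82) and Rmi2 (-1.23) lie farthest from 0. Neither has an adjusted p under 0.05 in the main edgeR fit, while DESeq2 and limma-voom call Ercc5.

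Ercc5 encodes XPG, the excision repair endonuclease that can also cut R-loops, and it stood apart. It was at 67.2, 83.2 and 95.6 CPM in Cre-positive libraries, against 33.1, 16.7 and 20.0 CPM in Cre-negative libraries. The groups were well separated, at 1.82 ± 0.28 on the log2 scale (standard error, edgeR adjusted p = 0.0573, and 1.1e-10 to 0.392 over the alternatives). It passed with DESeq2 (adjusted p = 1.1e-10), limma-voom (0.0178), edgeR without a filter (0.00932), edgeR on genes averaging 1000 counts or more (0.00299) and edgeR without Cre-negative replicate 1 (0.0251). Its partner in excision repair, Ercc4, was at 37.8 ± 3.30 CPM in Cre-positive and 42.01 ± 2.95 CPM in Cre-negative libraries (SD, n = 3 each).

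Among the helicases Ddx41 and Ddx1 had the smallest p. Ddx41, a DEAD-box helicase whose human gene is mutated in inherited myeloid leukaemia, averaged 132 ± 13.4 CPM in Cre-positive and 104 ± 9.97 CPM in Cre-negative libraries (log2 fold change 0.34, edgeR adjusted p = 0.528). Ddx1 averaged 300 ± 16.9 against 262 ± 15.7 CPM, a log2 fold change of 0.20 (adjusted p = 0.655), and of -0.22 with effective length offsets. For both genes the 3 Cre-positive values all exceeded the 3 Cre-negative ones.

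Among export genes, Alyref, the adaptor that hands mRNA to the exporter, averaged 122 ± 9.19 CPM in Cre-positive and 145 ± 13.8 CPM in Cre-negative libraries, with overlapping groups. Its log2 fold change was -0.25 (edgeR adjusted p = 0.667), and 0.24 with effective length offsets. Nxt1, the small partner of the exporter Nxf1, had -0.77 (adjusted p = 0.669), and in TREX-2 Cetn2 had -0.95 and the scaffold Mcm3ap 0.20 (adjusted p = 0.648 and 0.756). Zc3h11a was listed under 2 identifiers, of which 1 was used.

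Rmi2, a subunit of the complex of BLM helicase and topoisomerase III alpha, was at 10.3, 2.04 and 7.48 CPM in Cre-positive libraries, against 12.2, 21.1 and 13.3 CPM in Cre-negative libraries. It was lower in every Cre-positive library at low counts (log2 fold change -1.23, standard error 0.61, edgeR adjusted p = 0.687). Top2b, a topoisomerase II that is also present in nondividing cells, had 0.20 (adjusted p = 0.696). The partners of aquarius with the smallest p were Xab2 at -0.26 and Ppie at 0.29 (adjusted p = 0.888 and 0.899). Brca2, which guards replication forks, had -0.23 (adjusted p = 0.819), and Adar and Ifih1, which edit and sense double-stranded RNA, had 0.39 and 0.55 (adjusted p = 0.698 and 0.915).

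The genes whose pattern over the 6 libraries was most like that of Aqr, among those averaging 1000 counts or more, were Marc2, Ktn1 and Ube4b. Likeness was the root mean square difference of log2 CPM centred on each gene's mean, which was 0.03, 0.04 and 0.04 log2 units. Marc2 was at 59.6, 72.5 and 57.1 CPM in Cre-positive libraries, against 51.2, 53.2 and 50.2 CPM in Cre-negative libraries, with Cre-positive replicate 2 highest as for Aqr. Among the 9 genes themselves, Dhx9 and Top1 were closest to each other (0.05), and Rnaseh1 and Rnaseh2b were farthest apart (0.74).

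The summed levels of 2 marker lists of other blood lineages, and that of the erythroid list, did not overlap between the groups. The summed level of 10 erythroid markers, all detected, was 1209 to 1659 CPM in Cre-positive and 843 to 1084 CPM in Cre-negative libraries. That of 11 neutrophil and monocyte markers was 230 to 520 CPM in Cre-positive and 576 to 1503 CPM in Cre-negative libraries, with 8 detected and Ly6c2, S100a8 and S100a9 at 0 throughout. That of 10 lymphoid markers was 3.30 to 10.6 against 43.1 to 137 CPM, with 8 detected and Cd3e and Dntt at 0. The 12 S phase genes, all detected, summed to 3318 to 3539 CPM in Cre-positive and 3422 to 3728 CPM in Cre-negative libraries. The summed markers stayed at 35.3 to 75.5 against 35.6 to 72.0 CPM for 6 megakaryocyte genes (5 detected), and at or under 35.8 CPM in every library for mast cell, hepatocyte, and endothelial and stromal genes. Of the genes for the sort markers, Kit was at 334 to 354.5 CPM in Cre-positive and 374.7 to 425.1 CPM in Cre-negative libraries. Cd24a was at 141.7 to 186.3 against 72.6 to 134.2 CPM. Neither overlapped between the groups, beside 15.2% of all tested genes, and neither passed (edgeR adjusted p = 0.614 and 0.558). Tfrc, which encodes CD71, overlapped. The part of all these markers in the levels of the 9 genes was not tested.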

How the data were processed

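Libraries of the 6 sorted samples came from total RNA with a strand-keeping low-input Takara kit, per the labels' protocols. The submitters' processing notes name STAR 2.5.3a, RSEM 1.3.0 and GRCm39. The authors deposited, per the file headers, an expected count, TPM, FPKM and mean transcript lengths for each gene. FPKM was not used. Of 55359 identifiers 52081 matched a symbol.

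Expected counts were rounded (2.64% were not whole). Genes kept by edgeR's filterByExpr were tested with edgeR 4.0.16 (TMM, glmQLFit, glmQLFTest) under R 4.3.3, and p-values were adjusted over all 13117 by Benjamini and Hochberg. Intervals are fold change ± the t quantile times the standard error. The test was checked on simulated data. Totals ran from 89629949 to 124931215 counts per library, and intervals rest on the spread between libraries as moderated over genes by the fit. DESeq2 1.42.0 and limma 3.58.1 served as alternatives, with TPM on a log2 scale with pseudocounts of 1 and 0.1. Transcript types and overlaps came from GENCODE M21, matched by identifier, on another build (GRCm38), so no coordinates are given.

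The members and lists were chosen with earlier results of these data known. All 9 members are named. From each pathway list the 2 genes with the smallest p are named, and the 3 genes most like the member with the smallest p. The 5 within-library ratios were added after the data were seen. Setting Ercc4, Gata1, Klf1, Epor, Kit, Cd24a, Tfrc and overlapping neighbours beside them was also decided after values were seen.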

Additional observations from a re-analysis of the deposited data

How the results depend on the processing

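None of the 9 genes passed under any of the 16 alternatives. For the replicate block, same-numbered libraries of the 2 groups deviated together only weakly (r = 0.03, 0.05 and 0.07 across genes), although each correlated best with its own number, a hint from the data and not the design. With the block edgeR called 38 genes higher and 18 lower, among the 9 called 0, and called Ercc5 (adjusted p = 0.0329). The count of all genes higher in Cre-positive cells (16) was 321 with DESeq2, 33 without a filter, 58 among genes averaging 1000 counts or more, and 6 with effective length offsets or with either TPM pseudocount. Genes lower (0) numbered 304, 6 and 26 under the first 3 of these. Leaving out single libraries gave 7 to 15 higher and 0 to 3 lower genes. It gave 0 of the 9 and a median of the 9 from 0.082 to 0.127. On log2 TPM that median was 0.085 with either pseudocount.

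The sign turned with effective length offsets, log2(TPM + 1) and log2(TPM + 0.1) for Rnaseh2a (0.432, 0.376 and 0.38), Rnaseh2c (-0.564, -0.49 and -0.495), Dhx9 (-0.119, -0.147 and -0.147), Ddx1 (-0.217, -0.195 and -0.196) and Alyref (0.239, 0.204 and 0.206), and with both TPM settings for Thoc1 (-0.005 and -0.006). These settings all rest on the same RSEM length estimates, which differ between libraries, so they are not independent checks of each other. Without single libraries the range was -0.165 to 0.089 for Rnaseh2a, -0.149 to 0.233 for Rnaseh2b and -0.144 to 0.812 for Ifih1 (lowest without Cre-positive replicate 1). The cause was not tested. At this depth and spread the intervals of Rnaseh1 and Rnaseh2c from counts include a change of 1 log2 unit. With effective length offsets those of Rnaseh2a, Rnaseh2b and Thoc2 include it as well.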
